A study of Mus musculus with 139 samples.

Results

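The late phase of the response to loss of EXOSC2 in mouse embryonic stem cells (ESCs) was read as total RNA at 20 h of indole-3-acetic acid (IAA) against total RNA at 4 h. Every gene with an FPKM of 1 or more in at least 2 of the 6 ESC libraries was included, which gave 12461 of the 52885 genes listed. FPKM counts fragments per length of transcript, scaled to the size of the library. The comparison used 4 of the 139 libraries of the series. The cells were of the line AID-FBEXOSC2, in which EXOSC2 carries an auxin-inducible degron and IAA, an auxin, leads to breakdown of the tagged protein. They grew on gelatin in 15% serum with LIF, the cytokine that keeps ESCs in self-renewal. Cells had 0.5 mM IAA for 20 h in 2 libraries and for 4 h in 2 libraries, and 2 libraries came from cells at 0 h, without IAA. RNA was depleted of ribosomal RNA before sequencing. The same interval was also read in 2 further experiments on the line, each with 2 libraries a time. RAD0 libraries held polyadenylated RNA of ESCs without retinoic acid. ESCs with 2 µM retinoic acid for 24 h were sequenced beside them at 0, 4 and 20 h of IAA. Libraries of these treated ESCs entered the choice of genes and the fit for RAD0. The iMEF libraries held ribosome-depleted total RNA of fibroblasts that had been derived from the ESCs. The derivation used 1 µM retinoic acid for 10 days without LIF, and cells were picked by fast attachment. All groups carried the degron, and IAA-treated cells without it were not analysed here, so effects of the auxin cannot be told apart from those of the depletion. Whether the line is 1 clone and how replicates were made are not given in the labels, so that p-values measure the spread between these libraries, which may be technical.

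The RNA exosome is the complex that trims and degrades RNA from its 3' end in nucleus and cytoplasm. Its ring of subunits, capped by EXOSC1, EXOSC2 and EXOSC3, feeds RNA to the nucleases DIS3 and EXOSC10. It removes promoter upstream transcripts, enhancer RNAs and unspliced or misprocessed RNA, and matures ribosomal, small nuclear and small nucleolar RNAs. ESCs hold their naive state through LIF signalling and a network of transcription factors around Pou5f1, Sox2 and Nanog, and they divide fast with a high output of ribosomes.

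Exosc2 mRNA is no measure of the depletion, since the degron acts on the protein. It had 1.04 and 0.938 FPKM at 20 h, against 2.64 and 2.17 FPKM at 4 h. All 7 ESC markers examined were detected, with a summed level of 472 to 520.0 FPKM at 20 h, against 1234 to 1506 FPKM at 4 h and 1696 to 1753 FPKM at 0 h. Of 10 fibroblast or feeder markers 3 reached an FPKM of 1 in any library, and their sum was 2.03 to 2.13 FPKM at 20 h, against 3.61 to 6.42 FPKM at 4 h. The sums of 6 primitive endoderm markers, 1.32 to 1.34 FPKM at 20 h against 1.68 to 1.75 FPKM at 4 h, and of 4 blood markers, 0.0645 to 0.139 FPKM at 20 h against 0.316 to 0.547 FPKM at 4 h, were low, and the globins Hbb-bt and Hba-a1 were listed at 0 in all 6 libraries. Trophoblast markers summed to 6.08 to 7.58 FPKM at 20 h, against 0.242 to 0.87 FPKM at 4 h, and Hand1 and Cdx2 made up most of that sum. The neural sum of 9.87 to 11.2 FPKM at 20 h, against 10.9 to 12.9 FPKM at 4 h, came nearly all from Neurod1. In bulk RNA, fewer cells of a type and less RNA per cell cannot be told apart.

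Most genes were lower at 20 h than at 4 h on the scale of the deposited values. Both 20 h libraries lay below both 4 h libraries in 64.8% of the genes tested and above both in 14%. Lack of overlap, given for single genes below, is to be read against these shares. The median log2 change was -0.43, with 5% of genes below -1.52 and 5% above 0.75, and limma called 980 genes higher (7.86% of those tested) and 6054 lower (48.6%) at an adjusted p under 0.05. The summed FPKM was 333780 and 323866 at 20 h, against 463744 and 476799 at 4 h, and without the 3 abundant genes AY036118, Gm42418 and Gm26917 it was 297024 and 288788 at 20 h, against 362937 and 419817 at 4 h. AY036118 had 70390 and 28414 FPKM at 4 h and was listed at 0 in both 20 h libraries, and so was Gm42418, with 621 and 429 FPKM at 4 h. The part of these genes in the shift of the median was not tested. After each library was divided by the median ratio of its genes to their mean, the median change was 0.00 and the calls were 3098 higher (24.9%) and 3225 lower (25.9%). Medians of gene lists are therefore given relative to the median of all genes, while the change of a single gene is that of the deposited values unless it is said to be after rescaling. Subtracting a single median does not undo the shift evenly, since on the log2 scale of FPKM + 1 it was larger for abundant genes. Rescaling took the abundant Pou5f1 from -1.50 to -0.92, but the low gene Thy1 from -1.24 to -1.08. After rescaling 37 of 56 relative medians moved by more than their spread over pairs of libraries. "Rose" and "fell" below mean a call in the same direction before and after this rescaling, which 978 genes (7.85%) met for a rise and 3225 (25.9%) for a fall. Counts of list members that rose or fell are to be read against these shares. Among the rises, 208 genes were below 1 FPKM in every 4 h and 0 h library. Such genes, 233 of those tested, passed the filter only through the 20 h libraries and so had to be higher there, and Vgf, Hand1, Ets1, Bmp7, Itgb4, Cdx2, Axl, Crim1, Edn1, Atf3 and Mmp9, named below, are among them. Of the rises 314 were of 1 or more on the log2 scale and 48 of 2 or more, and of the falls 2112 and 154 were that large. With either 20 h library left out fewer genes rose, fewer passed the filter and fewer were called higher as deposited. Rescaling was not refitted for these fits, so their falls could not exceed 3225 and are not counted here. The tables give no read counts, so the depth of each library is unknown. A fold change on the scale of log2(FPKM + 1) understates the change of low genes.

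**Figure D1:**
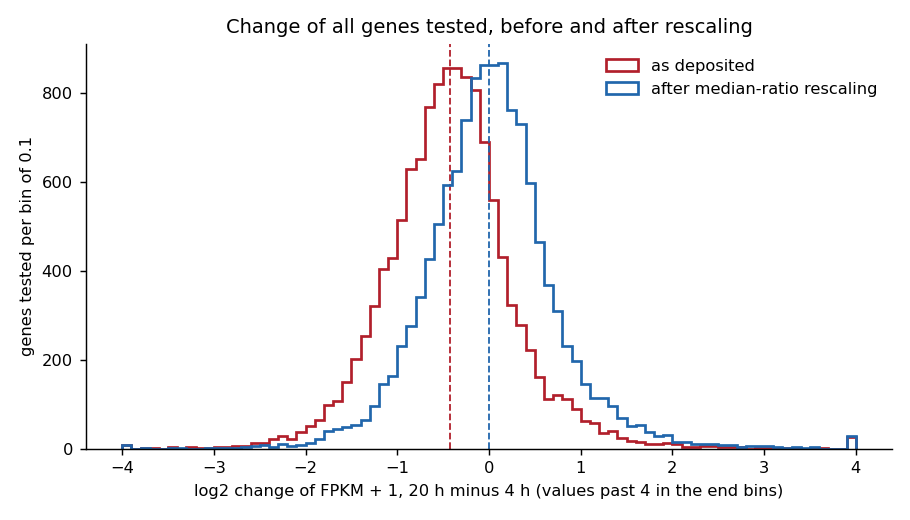
Number of genes (vertical axis, per bin of 0.1) by log2 change of FPKM + 1, 20 h minus 4 h, for all 12461 genes tested, as deposited and after median-ratio rescaling. Dashed lines mark the medians, -0.43 as deposited and 0.00 after rescaling.

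The 14 largest rises included genes for secreted peptides, secreted and lysosomal enzymes, keratins and a surface receptor, and the values below are FPKM in each library. Sct, which encodes the peptide hormone secretin (ENSMUSG00000038580.13, chr7:141278331-141279133, mm10), had 15.8 and 18.7 FPKM at 20 h, against 1.48 and 1.22 FPKM at 4 h, which came to 2.96 ± 0.23 (SE, adjusted p = 0.000336) on the log2 scale. Krt18, an intermediate filament keratin of simple epithelia (ENSMUSG00000023043.6, chr15:102028216-102032026), had 50.3 and 49.5 FPKM at 20 h, against 5.99 and 6.65 FPKM at 4 h, a change of 2.80 ± 0.11 (SE, adjusted p = 0.000161). The bicarbonate transporter family member Slc4a11 had 21.3 and 19.3 FPKM at 20 h, against 2.18 and 2.08 FPKM at 4 h (log2 change 2.76 ± 0.11). In these 3 genes every 20 h library lay far above every 4 h and 0 h library. Serpine2, an inhibitor of thrombin and plasminogen activators, had 17.0 and 16.3 FPKM at 20 h, against 1.65 and 1.60 FPKM at 4 h (log2 change 2.75 ± 0.15). Man2b1, a lysosomal mannosidase, had 55.1 and 49.98 FPKM at 20 h, against 7.61 and 7.91 FPKM at 4 h (log2 change 2.61 ± 0.11). Nppb, the natriuretic peptide B gene, had 10.2 and 12.6 FPKM at 20 h, against 1.02 and 1.05 FPKM at 4 h (log2 change 2.60 ± 0.19). Each of these 3 genes also rose in iMEFs, where the log2 changes were 0.82, 0.69 and 1.13. The remaining genes of the 14 largest rises were Gpx3, a secreted glutathione peroxidase (log2 change 2.59 ± 0.20), the secreted neuropeptide precursor Vgf (log2 change 2.54 ± 0.17), Krt19, Krt8, Hand1, Plaur, the transcription factor Ets1 (log2 change 2.38 ± 0.14) and the membrane protein Emp3 (log2 change 2.37 ± 0.20). Ets1 had 5.65 and 5.22 FPKM at 20 h, against 0.165 and 0.318 FPKM at 4 h.

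**Figure D2:**
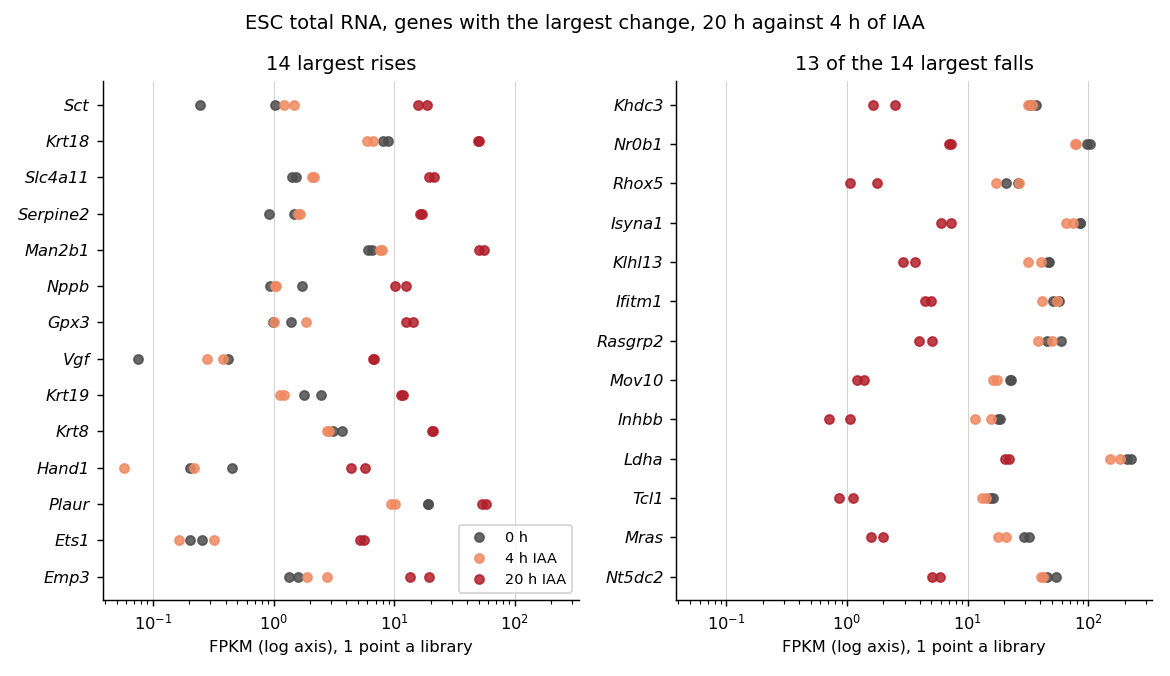
FPKM on a log axis of the 14 genes with the largest rises (left) and of 13 of the 14 with the largest falls (right), 1 point for each ESC library at 0 h, 4 h and 20 h of IAA. The genes were chosen for a lack of overlap between 20 h and 4 h. The 20 h points also stand apart from 0 h in every gene shown, while 0 h and 4 h points lie close together in most.

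The 14 largest falls, of which 13 are described, included genes of oocytes and ESCs, of signalling and of metabolism. Khdc3, a component of the subcortical complex of mouse oocytes that ESCs also express (ENSMUSG00000092622.8, chr9:73102398-73104438), had 2.52 and 1.63 FPKM at 20 h, against 31.6 and 34.3 FPKM at 4 h, which came to -3.48 ± 0.16 (SE, adjusted p = 0.000181) on the log2 scale. Nr0b1, which encodes the nuclear receptor DAX1, had 7.29 and 6.95 FPKM at 20 h, against 77.0 and 79.6 FPKM at 4 h (log2 change -3.29 ± 0.11). In both genes the 20 h libraries were far below every other library, since 0 h values were 37.0 and 32.9 FPKM for Khdc3 and 103 and 97.0 for Nr0b1. The X-linked homeobox gene Rhox5 had 1.05 and 1.76 FPKM at 20 h, against 17.2 and 26.5 FPKM at 4 h (log2 change -3.23 ± 0.24). Isyna1, the enzyme that makes inositol phosphate from glucose phosphate, had 7.28 and 6.00 FPKM at 20 h, against 65.4 and 74.8 FPKM at 4 h (log2 change -3.22 ± 0.14). Ldha encodes lactate dehydrogenase A and had 22.1 and 20.2 FPKM at 20 h, against 152 and 183 FPKM at 4 h (log2 change -2.93 ± 0.14). Mov10, an RNA helicase that restrains retroelements, had 1.203 and 1.38 FPKM at 20 h, against 16.1 and 17.4 FPKM at 4 h (log2 change -2.95 ± 0.11). Lack of overlap between the 20 h and 4 h libraries was a condition for the 14 largest rises and falls. The remaining falls described were those of the ubiquitin ligase adaptor Klhl13 (log2 change -3.11 ± 0.16), the interferon-induced membrane protein gene Ifitm1 (log2 change -3.10 ± 0.17), the Ras exchange factor Rasgrp2 (log2 change -3.02 ± 0.20), the activin and inhibin subunit Inhbb (log2 change -2.95 ± 0.17), the AKT co-activator Tcl1 (log2 change -2.87 ± 0.12), the small GTPase Mras (log2 change -2.86 ± 0.14) and Nt5dc2 (log2 change -2.72 ± 0.14). Of these 27 genes with the largest changes 26 were called in the same direction in RAD0, and Khdc3 was not (-0.01, adjusted p = 0.979). They were picked for size and lack of overlap. For all risen and all fallen genes tested in both experiments the shares called in the same direction were 77.8% and 68.4%.

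Naive and core pluripotency genes fell as groups, but Sox2 held near the median. Of 24 naive genes tested 20 fell and 0 rose, with a median relative to all genes of -0.98. Of 12 core genes 9 fell and 0 rose, with a relative median of -0.76. In RAD0 13 of 24 naive genes fell and 3 rose (-0.45), and 4 of 12 core genes fell and 2 rose (-0.16). Over all genes tested there 21.1% fell and 19.9% rose. Nanog (ENSMUSG00000012396.12, chr6:122707489-122714633), the homeodomain factor of the naive network, had 11.1 and 9.63 FPKM at 20 h, against 49.8 and 59.7 FPKM at 4 h, -2.29 ± 0.14 (SE, adjusted p = 0.00023) on the log2 scale and -1.75 after rescaling. It had 100.2 and 96.3 FPKM at 0 h, so that 4 h lay between the other times (log2 change -0.84 from 0 h to 4 h). Pou5f1, the POU factor at the centre of the network, had 144 and 132 FPKM at 20 h, against 366 and 419 FPKM at 4 h, a change of -1.50 ± 0.14 (SE, adjusted p = 0.000474). Both genes had their 20 h libraries below their 4 h libraries, as did 64.8% of all genes tested. Sox2, the partner of Pou5f1, had 75.6 and 69.1 FPKM at 20 h, against 99.0 and 128 FPKM at 4 h. Its change of -0.63 ± 0.17 (SE, adjusted p = 0.0193) was called as deposited, lost its call without 20 h replicate 1, 20 h replicate 2 or 4 h replicate 2 (adjusted p = 0.05 to 0.0925), and ended on rescaling (-0.06, adjusted p = 0.57), and in RAD0 Sox2 rose (0.92, adjusted p = 4.33e-06). Fgf4, the growth factor through which ESCs signal to themselves, had 6.49 and 6.41 FPKM at 20 h, against 30.9 and 37.7 FPKM at 4 h (log2 change -2.24 ± 0.13). Tdgf1, the Nodal co-receptor Cripto, had 14.1 and 12.2 FPKM at 20 h, against 77.9 and 101 FPKM at 4 h (log2 change -2.67 ± 0.16). Lin28a, an RNA-binding protein that blocks maturation of let-7, had 14.8 and 16.0 FPKM at 20 h, against 71.5 and 84.2 FPKM at 4 h (log2 change -2.26 ± 0.13). Klf5, Tbx3 and Dppa4 among the naive genes, and Trim71 and Zfp281 among the core genes, were not called in both scalings. The list of formative genes and DNA methylation enzymes had 7 of 11 members lower and 0 higher, and those that fell were Dnmt3a, Dnmt3b, Dnmt3l, Uhrf1, Tet1, Tet2 and Etv5, nearly all of them enzymes of DNA methylation or their partners. Dnmt3a, a de novo methyltransferase, had 2.01 and 2.10 FPKM at 20 h, against 15.7 and 15.7 FPKM at 4 h (log2 change -2.45 ± 0.14). Tet1, which oxidizes methylcytosine, had 10.9 and 11.6 FPKM at 20 h, against 39.3 and 46.4 FPKM at 4 h (log2 change -1.83 ± 0.13). Uhrf1, which guides maintenance methylation, had 14.7 and 14.4 FPKM at 20 h, against 57.4 and 70.1 FPKM at 4 h (log2 change -2.06 ± 0.14). All 3 genes were lower at 20 h without overlap. Otx2 and Pou3f1, transcription factors of formative cells, were not called.

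Few genes of other lineages rose. The list of 15 trophoblast genes had 9 tested members, of which 4 were higher (Hand1, Cdx2, Ascl2 and Arid3a) and 1 was lower, Cdkn1c, and 2 of the 4, Hand1 and Cdx2, passed the filter only through the 20 h libraries. Hand1, a basic helix-loop-helix factor of trophoblast giant cells and mesoderm, had 4.41 and 5.69 FPKM at 20 h, against 0.220 and 0.0580 FPKM at 4 h, a change of 2.41 ± 0.18 (SE, adjusted p = 0.000317). Cdx2, the caudal factor that sets the trophoblast fate, had 1.13 and 1.34 FPKM at 20 h, against 0.235 and 0 FPKM at 4 h, with 1 library at 4 h listed at 0, and its change was 1.00 ± 0.21 (SE, adjusted p = 0.00703). The trophoblast genes Elf5, Gata3 and Tfap2a stayed below the filter. Gata6, a factor of primitive endoderm, had 0.260 and 0.107 FPKM at 20 h, against 0.504 and 0.135 FPKM at 4 h. Eomes, Fgf5 and T, which mark mesendoderm, epiblast and primitive streak, were below 1 FPKM at both times, and no gene of the lists of 39 HOX genes and 12 genes of the 2-cell stage passed the filter. Bmp7 and Bmp4 encode ligands of BMP receptors. Bmp7 rose, with 2.45 and 2.07 FPKM at 20 h, against 0.322 and 0.146 FPKM at 4 h (log2 change 1.40 ± 0.18). Bmp4 fell, with 7.50 and 7.99 FPKM at 20 h, against 16.5 and 20.5 FPKM at 4 h (log2 change -1.15 ± 0.14). In the LIF and STAT3 list 4 of 10 members fell and 1 rose, where 25.9% of all genes tested fell and 7.85% rose. Lifr, the receptor, had 3.36 and 3.48 FPKM at 20 h, against 9.53 and 9.95 FPKM at 4 h (log2 change -1.28 ± 0.11). Socs3, its feedback inhibitor, had 12.7 and 12.1 FPKM at 20 h, against 28.5 and 31.8 FPKM at 4 h (log2 change -1.21 ± 0.11). In RAD0 Lifr rose (0.54, adjusted p = 0.00131) and Socs3 was not called (0.12). Lefty2, a Nodal inhibitor, was called in opposite directions in the 2 ESC experiments, with a log2 change of -1.17 here and 1.75 in RAD0. The homeobox gene Gbx2 (-1.69 here and 0.31 in RAD0) and the cyclin gene Ccnd1 (-1.12 here and 0.32 in RAD0) were too, and the difference between the experiments was not tested.

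Keratins and some junction genes rose together. All 3 simple keratins that passed the filter, of 5 in the list, rose, with a relative median of 2.96. Krt8 (ENSMUSG00000049382.9, chr15:101996711-102004342), the filament partner of Krt18 and its neighbour on chromosome 15, had 20.8 and 20.7 FPKM at 20 h, against 2.89 and 2.80 FPKM at 4 h (log2 change 2.50 ± 0.12). Krt19, on chromosome 11, had 11.7 and 11.3 FPKM at 20 h, against 1.21 and 1.13 FPKM at 4 h (log2 change 2.53 ± 0.14). The replicates of each keratin lay close together, and the 4 h libraries stood below the 0 h values of 8.96 and 8.08 FPKM for Krt18, 3.09 and 3.67 for Krt8 and 2.47 and 1.78 for Krt19. Of 19 junction genes 6 rose (Cldn4, Cldn6, Ocln, Dsp, Pkp3 and Crb3) and 1, the splicing regulator Esrp1, fell. Dsp, the desmosomal plaque protein that anchors keratin filaments, had 9.54 and 9.76 FPKM at 20 h, against 1.10 and 1.09 FPKM at 4 h (log2 change 2.35 ± 0.11). The tight junction gene Cldn6 had 58.7 and 57.2 FPKM at 20 h, against 18.4 and 24.1 FPKM at 4 h (log2 change 1.42 ± 0.16). Cdh1 and Epcam, the adhesion molecules that ESCs share with epithelia, were not called. Of 16 tested integrin and adhesion genes, from a list of 19, 7 rose and 1 fell, and 2 of the 7 passed the filter only through the 20 h libraries. The integrin subunit gene Itgb4, of hemidesmosomes, had 4.04 and 4.43 FPKM at 20 h, against 0.284 and 0.517 FPKM at 4 h (log2 change 1.91 ± 0.15). Fibronectin, Fn1, fell with 16.3 and 15.9 FPKM at 20 h, against 45.8 and 55.4 FPKM at 4 h (log2 change -1.59 ± 0.13). In iMEFs no keratin was called, and Krt18 had a change of -0.27 (adjusted p = 0.151).

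Most tested targets of the Hippo effector YAP rose as well. YAP is a co-activator that binds DNA through TEAD factors when cells spread or come under tension. Of 15 targets in the list 12 were tested, 8 rose and 1, Fstl1, fell, and the relative median was 1.55. Axl, Crim1 and Edn1, 3 of the 8, passed the filter only through the 20 h libraries. Cyr61, which encodes a matricellular protein (RefSeq symbol Ccn1; ENSMUSG00000028195.4, chr3:145646976-145649981), had 44.1 and 43.2 FPKM at 20 h, against 7.89 and 7.52 FPKM at 4 h, a change of 2.36 ± 0.14 (SE, adjusted p = 0.00023). Amotl1, a junctional protein that binds YAP, had 12.7 and 11.1 FPKM at 20 h, against 2.93 and 2.54 FPKM at 4 h (log2 change 1.79 ± 0.12). Its relative Amotl2 had 20.8 and 20.2 FPKM at 20 h, against 8.04 and 8.65 FPKM at 4 h (log2 change 1.20 ± 0.11). Edn1, the peptide endothelin, had 2.85 and 2.56 FPKM at 20 h, against 0.0329 and 0.0677 FPKM at 4 h (log2 change 1.82 ± 0.16). The 20 h libraries of these 4 genes lay above all 4 h and 0 h libraries. The receptor tyrosine kinase gene Axl (log2 change 1.07 ± 0.15), the phosphatase gene Ptpn14 (log2 change 1.16 ± 0.16) and Crim1 (log2 change 0.60 ± 0.19) changed less, and the call of Crim1 was lost without 4 h replicate 2 (adjusted p = 0.132). The last gene of the 8 was Ctgf. In iMEFs 5 of 14 tested YAP targets rose and 0 fell, where 2.1% of all genes tested rose and 5.62% fell. In RAD0 9 of 14 rose and 0 fell, where 19.9% of all genes tested rose and 21.1% fell.

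The promoters of these genes are shown because a TEAD site, GGAATG or CATTCC on the other strand, was found in most of them. In the 250 bases before the RefSeq start (GRCm38.p6, the assembly of mm10), 6 of the 7 risen YAP targets with a window held the site, as did 1 of 3 tested targets that did not rise, Ajuba, and 14.4% of the 27025 genes in the promoter table. The list was drawn up from known targets of YAP and TEAD, so a higher share than that of all genes is built into it, and 3 of the 6 passed the filter only through the 20 h libraries. The site nearest the start is in capitals with its surroundings, 5' to 3' on the strand of the gene. Axl, Crim1, Amotl2, Ptpn14 and Ajuba are named for this match, after their values were seen:
Cyr61 (chr3:145650056-145650115, minus strand): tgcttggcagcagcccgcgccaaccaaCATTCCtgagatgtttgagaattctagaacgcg
Amotl2 (chr9:102717712-102717771, plus strand): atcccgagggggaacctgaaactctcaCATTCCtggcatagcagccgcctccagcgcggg
Axl (chr7:25788934-25788983, minus strand): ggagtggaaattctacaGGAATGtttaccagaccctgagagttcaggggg
Crim1 (chr17:78200142-78200201, plus strand): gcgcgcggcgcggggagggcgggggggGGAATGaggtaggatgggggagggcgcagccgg
Edn1 (chr13:42301242-42301301, plus strand): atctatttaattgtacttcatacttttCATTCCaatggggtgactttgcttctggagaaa
Ptpn14 (chr1:189728095-189728154, plus strand): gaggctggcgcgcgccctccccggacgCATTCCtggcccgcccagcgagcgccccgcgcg
A match is a description of letters, and binding was not measured. The whole 250 bases of Cyr61 (chr3:145649986-145650235, minus strand), the gene with the largest change of the list, were:
Cyr61: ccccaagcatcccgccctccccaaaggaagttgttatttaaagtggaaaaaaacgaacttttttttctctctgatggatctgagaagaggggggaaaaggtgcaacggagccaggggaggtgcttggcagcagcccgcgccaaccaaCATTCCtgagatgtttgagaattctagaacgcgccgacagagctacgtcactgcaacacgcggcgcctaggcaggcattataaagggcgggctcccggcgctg
No H3K27ac peak, a mark of active promoters and enhancers, was listed within 1 kb of this start at 0 h or at 4 h.

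Immediate-early genes, the first to be transcribed after a stimulus, rose late. Of 23 in the list 20 were tested, and 12 rose (Fos, Fosl1, Fosl2, Jun, Junb, Jund, Egr1, Atf3, Klf6, Nr4a1, Dusp1 and Zfp36) and 2 fell (Ier2 and Srf), with a relative median of 1.25. Of the 12, 2 passed the filter only through the 20 h libraries. Dusp1, a phosphatase that switches off MAP kinases (ENSMUSG00000024190.6, chr17:26505590-26508519), had 22.5 and 21.2 FPKM at 20 h, against 4.77 and 5.36 FPKM at 4 h, a change of 1.91 ± 0.11 (SE, adjusted p = 0.00023). At 0 h it had 9.64 and 10.4 FPKM, so that its 4 h libraries were the lowest of the 3 times. Klf6, a zinc finger factor, had 17.4 and 16.5 FPKM at 20 h, against 3.27 and 4.13 FPKM at 4 h (log2 change 1.94 ± 0.13), with 7.20 and 6.85 FPKM at 0 h. Atf3, a stress-induced bZIP factor, had 4.60 and 3.87 FPKM at 20 h, against 0.179 and 0.185 FPKM at 4 h (log2 change 2.14 ± 0.16). Of 13 feedback genes of the FGF and MAP kinase pathway 3 rose, Dusp5 (log2 change 1.35 ± 0.15), Phlda1 (log2 change 2.04 ± 0.20) and Egr1 (log2 change 1.04 ± 0.13), and 1, Etv5, fell, while the Sprouty genes Spry1, Spry2 and Spry4 were not called. Of 10 genes of the plasminogen system 5 were tested. Plaur, Plau, Serpine2 and Anxa2 rose, 1 of these 4 having passed the filter only through the 20 h libraries, and S100a10 was not called. Plaur, the urokinase receptor (ENSMUSG00000046223.10, chr7:24462484-24475967), had 57.2 and 53.3 FPKM at 20 h, against 10.1 and 9.44 FPKM at 4 h, a change of 2.39 ± 0.11 (SE, adjusted p = 0.000181), and it had 19.08 and 19.02 FPKM at 0 h. Anxa2, a surface receptor for plasminogen, had 17.1 and 16.5 FPKM at 20 h, against 5.76 and 6.54 FPKM at 4 h (log2 change 1.32 ± 0.12). Of 22 secretory factors of senescent cells 8 were tested and 3 rose, the protease gene Mmp9 (log2 change 1.93 ± 0.15), the growth factor gene Hbegf (log2 change 1.03 ± 0.11) and Igfbp3 (log2 change 0.76 ± 0.11), and 0 fell. Actin genes were split, with 7 of 23 higher and 4 lower. Fhl2, a LIM protein of stress fibres, had 7.20 and 6.71 FPKM at 20 h, against 0.765 and 1.12 FPKM at 4 h (log2 change 2.04 ± 0.14), while the cytoplasmic actin gene Actg1 had 30.1 and 27.9 FPKM at 20 h, against 94.1 and 105 FPKM at 4 h (log2 change -1.75 ± 0.12).

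The promoters of Plaur and Dusp1 are shown for 2 motifs of inducible genes, an AP-1 site (TGANTCA) and a cyclic AMP response element (TGACGTCA), in capitals. The AP-1 letters are held by 7.82% of all genes with a RefSeq start and the response element by 1.77%, in the 250 bases before a start and on either strand. Of the 12 risen immediate-early genes 10 had a window, of which 1 held the response element, that of Dusp1, and 0 held the AP-1 letters. Of 6 tested immediate-early genes with a window that did not rise 1 held the response element, that of Maff, and 0 held the AP-1 letters. Of the 4 risen plasminogen genes 3 had a window, of which 2 held the AP-1 letters, those of Plaur and Anxa2.
Plaur (chr7:24462233-24462482, plus strand): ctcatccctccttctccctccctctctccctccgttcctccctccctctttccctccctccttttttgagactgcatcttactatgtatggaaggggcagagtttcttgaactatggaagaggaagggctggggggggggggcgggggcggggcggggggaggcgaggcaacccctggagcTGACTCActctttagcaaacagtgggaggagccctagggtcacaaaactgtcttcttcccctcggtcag
Dusp1 (chr17:26508473-26508722, minus strand): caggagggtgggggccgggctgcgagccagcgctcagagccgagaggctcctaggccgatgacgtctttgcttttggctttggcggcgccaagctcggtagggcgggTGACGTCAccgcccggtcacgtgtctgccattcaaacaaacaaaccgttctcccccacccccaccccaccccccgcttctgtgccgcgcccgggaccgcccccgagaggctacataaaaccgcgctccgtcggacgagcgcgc
An H3K27ac peak lay within 1 kb of the start of Dusp1 at both times and within 1 kb of that of Plaur at neither.

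**Figure D3:**
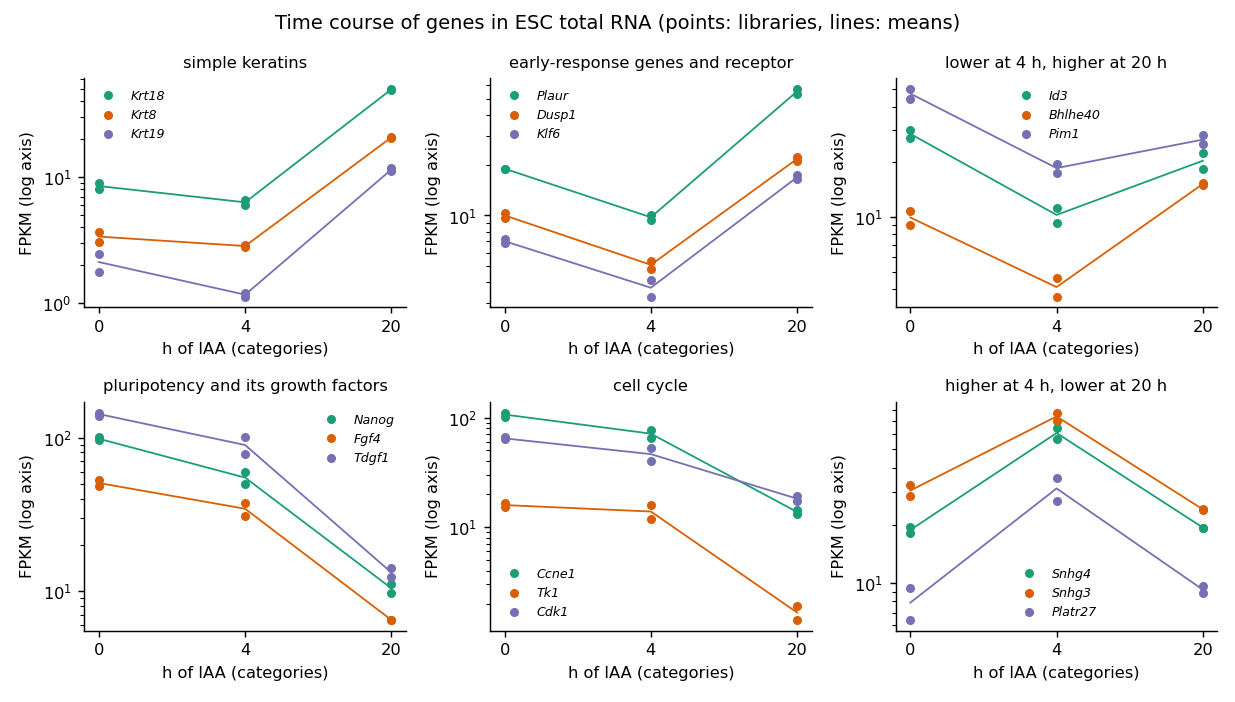
FPKM on a log axis at 0, 4 and 20 h of IAA, drawn as evenly spaced categories, for 18 genes in 6 panels. Points are libraries and lines join the means of 2. Keratins, Plaur, Dusp1 and Klf6 are highest at 20 h, pluripotency and cell cycle genes are lowest there, and Snhg4, Snhg3 and Platr27 peak at 4 h.

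Some p53 target genes rose between 4 h and 20 h. Of 8 genes of the p53 feedback loop 3 rose and 0 fell (relative median 0.57), of 13 arrest genes 5 rose and 2 fell (0.46), and of 13 death genes 5 rose and 0 fell (0.67). Perp, a desmosomal membrane protein (ENSMUSG00000019851.8, chr10:18845020-18857073), had 137 and 124 FPKM at 20 h, against 30.5 and 37.7 FPKM at 4 h, a change of 1.91 ± 0.15 (SE, adjusted p = 0.000317), and rose in RAD0 (2.57) and in iMEFs (1.40) too. Sfn, the cell cycle inhibitor 14-3-3 sigma, had 113 and 107 FPKM at 20 h, against 27.3 and 32.0 FPKM at 4 h (log2 change 1.86 ± 0.12). Both genes had their highest libraries at 20 h, and Sfn had 31.9 and 31.7 FPKM at 0 h. Mdm2, the ligase that degrades p53, had 121 and 114 FPKM at 20 h, against 76.7 and 90.8 FPKM at 4 h, with 21.2 and 17.8 FPKM at 0 h. Its change over the late phase was small, 0.49 ± 0.14 (SE, adjusted p = 0.0274), was 1.06 after rescaling, and its call as deposited was lost without 20 h replicate 1 (adjusted p = 0.129), 20 h replicate 2 (adjusted p = 0.0837) or 4 h replicate 1 (adjusted p = 0.0788). Cdkn1a, the CDK inhibitor p21, had 9.69 and 9.80 FPKM at 20 h, against 6.53 and 4.43 FPKM at 4 h (log2 change 0.75 ± 0.17), with 0.980 and 1.18 FPKM at 0 h. Trp53inp1, which amplifies p53 activity, had 78.7 and 73.8 FPKM at 20 h, against 37.1 and 45.8 FPKM at 4 h (log2 change 0.87 ± 0.14). Apaf1, the scaffold of the apoptosome, had 16.6 and 15.5 FPKM at 20 h, against 8.44 and 10.4 FPKM at 4 h (log2 change 0.72 ± 0.13). Sesn1 fell, with 0.782 and 1.11 FPKM at 20 h, against 2.86 and 3.50 FPKM at 4 h (log2 change -1.10 ± 0.15). Trp53 itself had 41.9 and 41.3 FPKM at 20 h, against 58.1 and 65.3 FPKM at 4 h, a log2 change of -0.56 that became 0.01 after rescaling and lost its call as deposited without either 20 h library (adjusted p = 0.0559 and 0.0647). Mdm4 changed sign too, with -0.43 as deposited and 0.14 after rescaling, and lost its call without 20 h replicate 1, 20 h replicate 2 or 4 h replicate 2 (adjusted p = 0.0547 to 0.131). Of 10 senescence genes 2 rose, Cdkn1a and Rb1, and 5 fell. Lmnb1, the lamin whose loss marks senescent cells, had 24.5 and 25.8 FPKM at 20 h, against 60.7 and 76.5 FPKM at 4 h (log2 change -1.40 ± 0.14). Cdkn2a, which encodes a CDK inhibitor and ARF, was not called, with 0.636 and 0 FPKM at 20 h, against 2.32 and 0.571 FPKM at 4 h.

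Genes of the cell cycle fell. Of 17 G1/S regulators 11 fell and 1 rose (relative median -0.62), of 30 replication genes 26 fell and 0 rose (-0.70), of 21 mitosis genes 13 fell and 0 rose (-0.43), and of 23 DNA repair genes 15 fell and 0 rose (-0.48). Ccne1, the cyclin that drives entry into S phase, had 14.2 and 13.2 FPKM at 20 h, against 65.1 and 77.4 FPKM at 4 h, a change of -2.29 ± 0.13 (SE, adjusted p = 0.00023). Ccnd3, a D-type cyclin, had 23.3 and 19.6 FPKM at 20 h, against 82.9 and 93.6 FPKM at 4 h (log2 change -1.99 ± 0.14). Skp2, the ligase subunit that removes p27, had 4.56 and 4.27 FPKM at 20 h, against 14.6 and 16.1 FPKM at 4 h (log2 change -1.59 ± 0.11). Tk1, thymidine kinase, had 1.91 and 1.41 FPKM at 20 h, against 11.9 and 15.8 FPKM at 4 h, a change of -2.48 ± 0.17 (SE, adjusted p = 0.000264). Gmnn, which limits DNA to a single round of replication, had 7.27 and 8.26 FPKM at 20 h, against 27.9 and 33.5 FPKM at 4 h (log2 change -1.85 ± 0.13). Cdk1, the mitotic kinase, had 17.2 and 19.15 FPKM at 20 h, against 39.8 and 52.8 FPKM at 4 h (log2 change -1.29 ± 0.16). No library of these genes at 20 h reached the level of a 4 h library. Over all genes tested, 19.9% rose and 21.1% fell in RAD0, and 2.1% rose and 5.62% fell in iMEFs. In RAD0, of the same 4 lists, 9 of 17 G1/S regulators fell and 3 rose (relative median -0.32), 24 of 30 replication genes fell and 0 rose (-0.54), 9 of 21 mitosis genes fell and 3 rose (-0.11), and 16 of 23 repair genes fell and 1 rose (-0.37). In the fibroblasts 7 of 16 G1/S regulators fell and 1 rose (-0.27), 28 of 30 replication genes fell and 0 rose (-1.01), 21 of 21 mitosis genes fell (-1.38), and 15 of 23 repair genes fell and 0 rose (-0.66). Replication-dependent histone genes, whose mRNAs end in a stem-loop in place of a poly(A) tail, fell in 40 of 61 cases here and rose in 0 (relative median -0.77). Hist1h2bf had 73.6 and 86.4 FPKM at 20 h, against 327 and 348 FPKM at 4 h (log2 change -2.07 ± 0.14). In the poly(A)-selected RAD0 libraries 13 of 48 histone genes rose and 0 fell (0.79), and Hist1h2bf rose (1.60, adjusted p = 0.0086), whereas in iMEF total RNA 43 of 57 fell and 0 rose. Near-identical copies share reads, so values of single histone genes are uncertain.

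The promoters of replication genes are shown for the E2F letters TTTNGCGC, read on either strand, which 1.31% of genes in the promoter table hold in the 250 bases before a start. Among genes with a window that fell, 1 of 11 mitosis genes and 1 of 8 G1/S regulators held them. Among those tested that did not fall, 0 of 3 replication genes, 0 of 8 mitosis genes and 1 of 4 G1/S regulators did. Of the 26 replication genes that fell 20 had a window, and 5 of these held the letters. They are in capitals, nearest the start, with up to 27 bases on each side:
Mcm5 (chr8:75109333-75109394, plus strand): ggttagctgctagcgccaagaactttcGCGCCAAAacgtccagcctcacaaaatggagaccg
Mcm6 (chr1:128359718-128359779, minus strand): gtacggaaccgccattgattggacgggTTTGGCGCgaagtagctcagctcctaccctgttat
Orc1 (chr4:108579400-108579453, plus strand): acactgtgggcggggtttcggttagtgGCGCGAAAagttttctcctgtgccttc
Rfc3 (chr5:151651209-151651245, minus strand): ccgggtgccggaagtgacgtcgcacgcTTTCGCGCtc
Pola1 (chrX:93632259-93632320, minus strand): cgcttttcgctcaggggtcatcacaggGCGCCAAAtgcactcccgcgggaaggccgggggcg
Mcm5 and Mcm6 encode subunits of the replicative helicase, Orc1 a subunit of the origin recognition complex, Rfc3 a subunit of the clamp loader and Pola1 the catalytic subunit of DNA polymerase alpha. These 5 genes were chosen for the letters, after their values were seen. Mcm6 had 45.3 and 40.5 FPKM at 20 h, against 104 and 127 FPKM at 4 h (log2 change -1.41 ± 0.14). The other 4 had log2 changes of -1.14 (Mcm5), -1.14 (Orc1), -1.10 (Rfc3) and -1.09 (Pola1).

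Genes for protein synthesis, protein turnover and metabolism fell in large numbers. Of 78 cytosolic ribosomal protein genes 55 fell and 0 rose (relative median -0.74), of 39 ribosome biogenesis genes 35 fell and 0 rose (-0.69), of 22 translation factors 20 fell and 0 rose (-0.72), and of 20 aminoacyl-tRNA synthetases 19 fell and 0 rose (-0.79). Nolc1, a nucleolar chaperone, had 8.47 and 8.74 FPKM at 20 h, against 29.9 and 36.9 FPKM at 4 h, a change of -1.83 ± 0.14 (SE, adjusted p = 0.000315). Kars, which charges lysine tRNA, had 20.6 and 20.8 FPKM at 20 h, against 63.8 and 78.7 FPKM at 4 h (log2 change -1.73 ± 0.14). Eef1b2, an exchange factor of elongation, had 94.8 and 95.7 FPKM at 20 h, against 324 and 377 FPKM at 4 h (log2 change -1.87 ± 0.15). Rpl22l1, a paralogue of a ribosomal protein, had 3.08 and 2.22 FPKM at 20 h, against 16.8 and 14.9 FPKM at 4 h (log2 change -2.21 ± 0.17). In each gene the 20 h libraries were below the 4 h libraries. Ribosomal protein mRNAs share reads with processed pseudogenes, a class in which 314 of 930 tested members, over all parent genes, fell and 16 rose, so their values are uncertain. Of 36 proteasome genes 32 fell and 0 rose (-0.70), with 12.9 and 12.6 FPKM at 20 h, against 38.6 and 43.2 FPKM at 4 h for the lid subunit gene Psmd7 (log2 change -1.61 ± 0.12). Of 15 glycolysis genes 11 fell and 1, the glucose transporter gene Slc2a1, rose (-1.02). The triose isomerase gene Tpi1 had 18.1 and 18.7 FPKM at 20 h, against 91.8 and 120.2 FPKM at 4 h (log2 change -2.45 ± 0.15). Pdk1, which diverts pyruvate from the mitochondrion, had 5.76 and 5.46 FPKM at 20 h, against 25.3 and 29.1 FPKM at 4 h (log2 change -2.09 ± 0.12). Of 15 genes of the ATF4 programme 9 fell and 2, Ddit3 and Cebpb, rose (-0.62). Phgdh, the first enzyme of serine synthesis, had 0.862 and 0.584 FPKM at 20 h, against 6.94 and 7.32 FPKM at 4 h (log2 change -2.24 ± 0.14). Shmt2, the mitochondrial serine hydroxymethyltransferase, had 6.97 and 6.10 FPKM at 20 h, against 26.1 and 28.2 FPKM at 4 h (log2 change -1.90 ± 0.12). The arginine transporter gene Slc7a3 had 3.37 and 4.011 FPKM at 20 h, against 27.3 and 30.3 FPKM at 4 h (log2 change -2.67 ± 0.13). Those that fell make or import amino acids, while Ddit3 and Cebpb encode bZIP factors of the stress response. Of 18 genes of cholesterol synthesis 15 fell and 0 rose (-0.65), among them Sqle, squalene epoxidase, with 4.78 and 4.73 FPKM at 20 h, against 12.7 and 14.02 FPKM at 4 h (log2 change -1.32 ± 0.11). Hmgcs1, an early enzyme of the same pathway, had 15.9 and 14.2 FPKM at 20 h, against 36.0 and 39.3 FPKM at 4 h (log2 change -1.27 ± 0.12). Of 14 heat shock genes 9 fell and 0 rose (-0.54), with 37.3 and 35.5 FPKM at 20 h, against 169 and 201 FPKM at 4 h for the mitochondrial chaperonin gene Hspd1 (log2 change -2.31 ± 0.15).

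**Figure D4:**
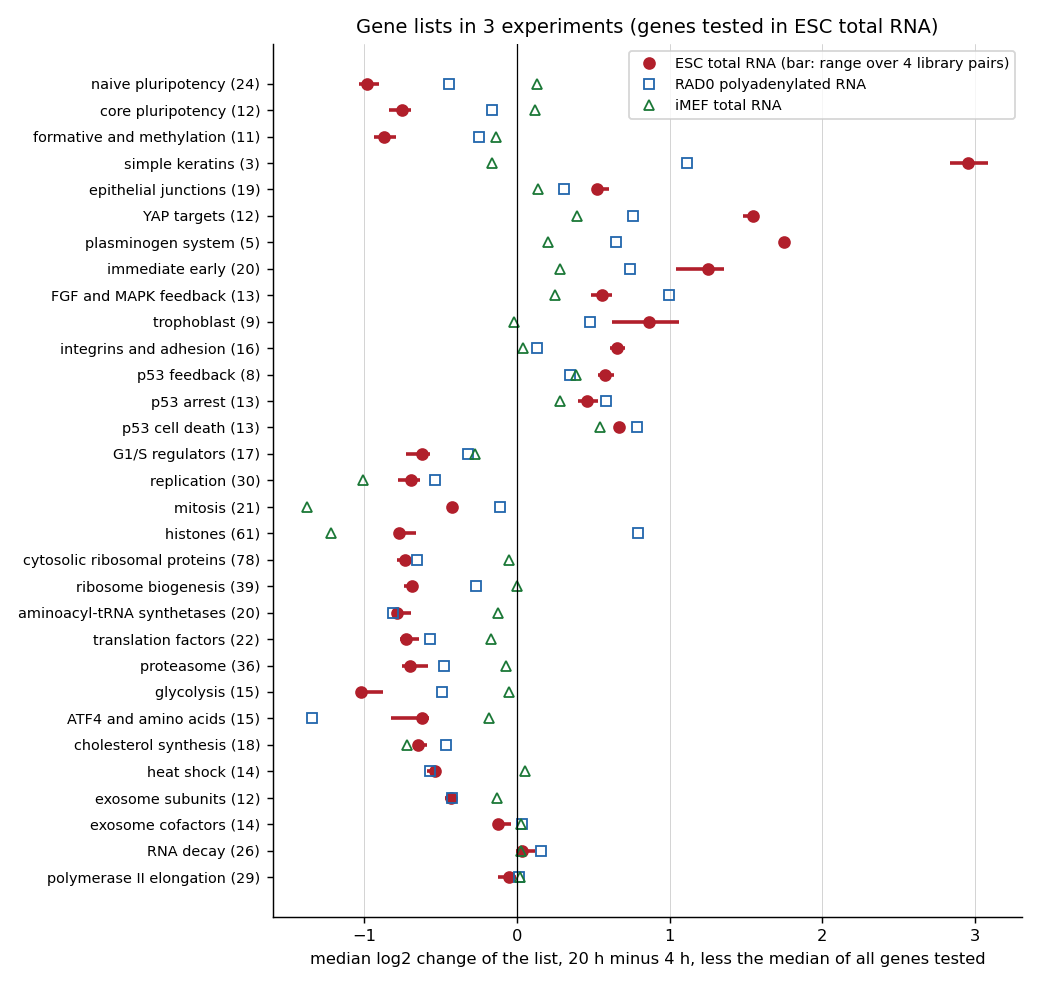
Median log2 change of 31 gene lists, 20 h minus 4 h, less the median of all genes tested in the same table (horizontal axis), in ESC total RNA with the range over the 4 pairs of libraries, RAD0 polyadenylated RNA and iMEF total RNA. Counts in brackets are genes tested in ESC total RNA. Keratins (2.96) and naive pluripotency (-0.98) lie far apart in ESC total RNA, replication lies below 0 in all 3 experiments, and histones lie above 0 in RAD0 polyadenylated RNA alone.

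Genes of the exosome and of RNA decay did not rise as groups. The shares over all genes tested were 25.9% for a fall and 7.85% for a rise. Of 12 exosome subunit genes 6 fell and 1, Exosc6, rose (relative median -0.44). Exosc5, a ring subunit, had 19.4 and 15.6 FPKM at 20 h, against 47.1 and 54.3 FPKM at 4 h (log2 change -1.49 ± 0.17). Exosc7, another ring subunit, had 11.2 and 9.89 FPKM at 20 h, against 28.8 and 29.4 FPKM at 4 h (log2 change -1.39 ± 0.13). Dis3, the catalytic subunit, had 13.3 and 13.5 FPKM at 20 h, against 23.9 and 29.0 FPKM at 4 h (log2 change -0.93 ± 0.13). Exosc2 changed by -0.77 ± 0.16 (SE, adjusted p = 0.00707) as deposited and by -0.46 after rescaling (adjusted p = 0.0633). Of 14 cofactor genes 4 fell and 0 rose (-0.13), among them the poly(A) polymerase gene Papd5 (log2 change -1.11 ± 0.16), and of 26 genes of other decay pathways 1 fell and 0 rose (0.03), Smg5 of nonsense-mediated decay. The nuclear exonuclease gene Xrn2 had 18.1 and 17.7 FPKM at 20 h, against 28.4 and 31.2 FPKM at 4 h and was not called in both scalings (-0.15 after rescaling). Neat1 (ENSMUSG00000092274.2, chr19:5824708-5845478), the scaffold RNA of paraspeckles, had 247 and 271 FPKM at 20 h, against 116 and 125 FPKM at 4 h, with 50.2 and 42.5 FPKM at 0 h, and a change of 1.10 ± 0.14 (SE, adjusted p = 0.00106). Malat1, a nuclear RNA of speckles, had 663 and 706 FPKM at 20 h, against 464 and 505 FPKM at 4 h (log2 change 0.50 ± 0.13), with 588 and 581 FPKM at 0 h, and its call as deposited was lost without 20 h replicate 1 (adjusted p = 0.0716) or 20 h replicate 2 (adjusted p = 0.119). Rian, an imprinted transcript that hosts small RNAs, fell with 51.3 and 47.3 FPKM at 20 h, against 131 and 149 FPKM at 4 h (log2 change -1.48 ± 0.13).

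Noncoding classes are given by counts beside the coding genes. Of 10360 coding genes 838 rose and 2777 fell. Of 232 lincRNAs 26 rose and 39 fell, with a relative median of 0.30. Of 157 antisense RNAs 19 rose and 13 fell (0.35), and of 278 genes annotated as yet to be experimentally tested 28 rose and 3 fell (0.42). The median level at 4 h was 2.16 FPKM for lincRNAs, 1.83 for antisense RNAs and 1.24 for the last class, against 5.81 for coding genes. Near 1 FPKM a fall is hard to call. Members that passed the filter only through the 20 h libraries were not counted by class. The sources used here do not say whether counting used strand, so antisense genes cannot be told apart from their partners. Of 118 snoRNAs 20 rose and 1 fell (0.84). These genes are short, and FPKM of short genes is uncertain. Snord14c had 1938 and 1187 FPKM at 20 h, against 616 and 391 FPKM at 4 h (log2 change 1.63 ± 0.36), and its call was lost without 4 h replicate 2 (adjusted p = 0.0607). The host genes of snoRNAs moved the other way, since 8 of 17 fell and 0 rose (-0.49). Snhg4, a host gene, had 19.5 and 19.5 FPKM at 20 h, against 56.6 and 64.6 FPKM at 4 h, with 18.2 and 19.6 FPKM at 0 h, and its change of -1.59 ± 0.12 (SE, adjusted p = 0.000315) followed one of 1.63 from 0 h to 4 h. Snhg3 had 24.3 and 24.1 FPKM at 20 h, against 70.4 and 77.5 FPKM at 4 h, with 32.4 and 28.3 FPKM at 0 h. The 20 h libraries of both genes lay far nearer to 0 h than to 4 h. Platr27, an ESC lincRNA, had 8.86 and 9.59 FPKM at 20 h, against 26.9 and 35.3 FPKM at 4 h, with 6.37 and 9.40 FPKM at 0 h (log2 change 1.86 by 4 h, then -1.64). Ppp1r10, a nuclear phosphatase subunit, had 10.1 and 10.0 FPKM at 20 h, against 17.6 and 20.9 FPKM at 4 h and 10.0 and 9.34 FPKM at 0 h. In the other direction Id3, an inhibitor of differentiation and BMP target, had 22.2 and 18.3 FPKM at 20 h, against 9.27 and 11.2 FPKM at 4 h, with 29.9 and 26.95 FPKM at 0 h, so that its late rise (log2 change 0.92 ± 0.15) followed a change of -1.39. The kinase gene Pim1 (-1.31 by 4 h, then 0.50), the calcium channel gene Orai1 (-1.17, then 1.39), the repressor gene Bhlhe40 (-1.09, then 1.66) and Csrnp1 (-1.08, then 0.70) did the same. The early and late changes share the 4 h libraries, so they are not independent of each other. The call of Pim1 was lost without 20 h replicate 2 (adjusted p = 0.121).

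A separate set of ESC libraries gave many of the same calls. In RAD0 polyadenylated RNA 3073 genes rose (19.9%) and 3249 fell (21.1%) between 4 h and 20 h, and the median change was -0.01, on the scale of the deposited values. Among genes tested in both experiments, 738 of the 949 that rose in total RNA rose in RAD0 (77.8%), which was 26.8% of the 2750 that rose in RAD0, and 2182 of 3192 that fell did so there (68.4%, or 72.3% of the 3020 that fell in RAD0). Opposite calls were made for 5 risen and 70 fallen genes. Across 12123 genes the changes had a Pearson r of 0.65 and a Spearman rho of 0.73, as a description of genes that share libraries. In iMEFs 273 genes rose (2.1%) and 730 fell (5.62%), and 137 of 821 genes that rose in ESC total RNA rose there (16.7%, or 56.6% of the 242 in iMEFs), as did 368 of 2810 that fell (13.1%, or 57.6% of 639). Across genes the r with iMEFs was 0.32 and the rho 0.40. As deposited, iMEF calls numbered 274 higher (2.11%) and 743 lower (5.72%), and they moved with single libraries, to 70 and 295 without 4 h replicate 1, 109 and 401 without 4 h replicate 2, 166 and 1080 without 20 h replicate 1, and 312 and 433 without 20 h replicate 2. The tables were normalized separately and no test was made across them. In iMEFs 0 of 39 genes of ribosome biogenesis and 0 of 35 of the proteasome were called in either direction, and of 72 cytosolic ribosomal protein genes 1 rose and 1 fell. Of 18 genes of cholesterol synthesis 17 fell and 0 rose there, and of 13 p53 death genes 8 rose and 0 fell.

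**Figure D5:**
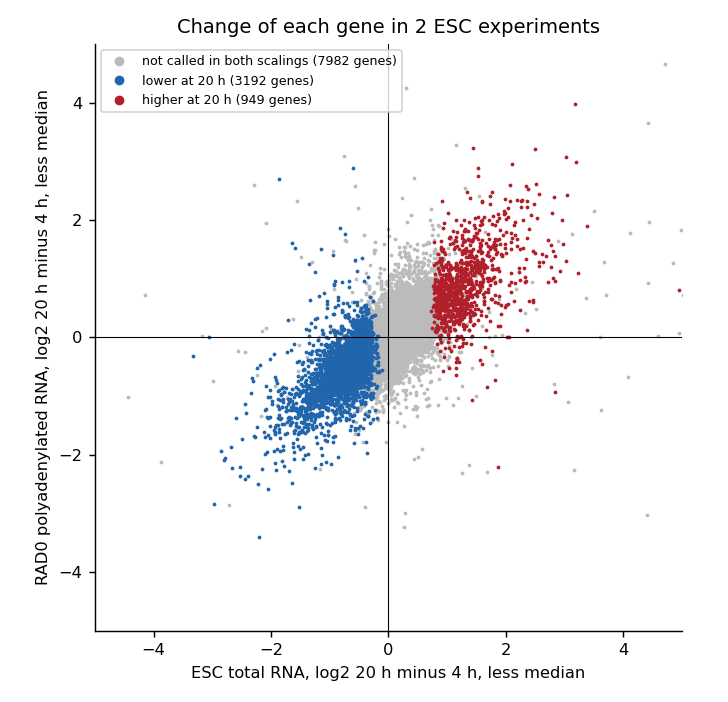
Log2 change of 12123 genes, 20 h minus 4 h, in ESC total RNA (horizontal axis) and RAD0 polyadenylated RNA (vertical axis), each less the median of its table. Points are coloured by their call in ESC total RNA before and after rescaling, and 18 genes lie outside the axes, which end at 5. Most of the 949 genes that rose and 3192 that fell lie on the same side of 0 in RAD0.

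Genes that rose and genes that fell are described here by other measures, without a test. In nascent RNA, labelled for 10 min with 5-ethynyluridine, the median change from 0 h to 4 h was 0.29 over 334 genes that later rose in total RNA and -0.12 over 2243 that later fell, against -0.04 over 7161 of all genes tested (log2 scale, genes with a nascent value of 1 or more in 2 libraries). Over the 4 pairs of libraries these medians ranged from 0.25 to 0.35 and from -0.12 to -0.09. The value of the genes that rose depended on the minimum, with 0.0654 over all 978 without one and 0.47 over 170 with a minimum of 2. At 0 h the ratio of the insoluble chromatin fraction (chrRNP) to the cytosol (cyto) had a median of -0.59 on the log2 scale over 623 genes that rose and of -1.87 over 3174 that fell, against -1.18 over 11282 in all (genes of 1 or more in 2 libraries). These medians varied widely over the 4 pairs of libraries, from -0.76 to -0.44, from -2.24 to -1.49 and from -1.41 to -0.95. With a minimum of 5 the medians were -1.28 over 244 genes that rose, -2.02 over 2756 that fell and -1.65 over 7400 in all. The level at 0 h, from libraries that entered the filter and the fit, had a median of 3.14 FPKM over the 770 genes that rose and had 1 FPKM or more in a 4 h or 0 h library, against 19.9 FPKM for those that fell and 7.18 FPKM for all genes of that kind. The other 208 genes that rose had to be low at 0 h. H3K27ac peaks lay within 1 kb of an end of the gene at both 0 h and 4 h in 44.5% of the same 770 genes that rose and 64.8% of the 3225 that fell, against 61.9% of all genes of that kind, and at 4 h but not 0 h in 10.3% of those that rose and 3.29% of those that fell, against 4.79% of all. With the 208 genes included, peaks at both times lay at 39.3% of the 978 that rose. Each time had 1 list of peaks, so these shares have no replicate check. The same count at RefSeq starts was void, because starts were known for 69.3% of genes, fewer than the 80% required. The part of the starting level in these differences was not tested.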

How the data were processed

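Total RNA of AID-FBEXOSC2 ESCs (2 libraries each at 20, 4 and 0 h of IAA), the RAD0 and iMEF libraries, chrRNP and cyto fractions, nascent RNA and H3K27ac peaks were used. Per the submitters' processing notes, the authors mapped reads to mm10 using TopHat2 (2.0.11) and obtained FPKM values from Cufflinks (2.0.2). Nascent values were deposited as RPKM, made by the authors with Trim Galore, TopHat2 and bedtools, per the submitters' processing notes. Peak positions were deposited by the authors, who used Bowtie2 2.2.6 and MACS2, per the submitters' processing notes. The sources used here do not state strand or spike-in use. The members and gene lists were chosen with earlier results of these data known.

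FPKM + 1 was put on the log2 scale for genes of 1 or more in 2 libraries, fitted over all libraries of a table with limma 3.58.1 (trend, moderated) in R 4.3.3, and adjusted by Benjamini-Hochberg at 0.05. "Called" without further words means called before and after median-ratio rescaling. On simulated data for the ESC comparison with 12461 genes the fit recovered 71% of seeded changes of 1 and 91% of changes of 2 on the log2 scale. Changes were seeded only in genes with a mean above 5 FPKM, 100 of each size, without a shift of the median. Calls were made without rescaling, so recovery of lower genes and of calls before and after rescaling is unknown. Relative medians of lists are less the median of all genes tested, and no set test was made. Motifs were searched on both strands of the 250 bases before RefSeq starts, in 32851 windows of 27025 genes. Named genes are, as a rule, the 14 largest rises and falls among called genes without overlap, with a mean of 5 FPKM or more in the higher group and not clones or small RNAs, the 3 members of each of 59 lists with the smallest p, the 6 largest opposite movers in each direction, and a few fixed genes, of which the text prints a part. Genes named only for a count, a motif or a call not made were chosen after their values were seen, and so were Dnmt3b, Tet2, Amotl2 and Mcm6. Alternatives were a pseudocount of 0.1, no filter, median-ratio or upper-quartile scaling, the replicate number as a block, no trend, the 4 compared libraries alone, and each library left out. Samples of other marks, times and assays were not used here, and a few genes are not reported here. Python 3.11.15, pandas 2.3.3 and matplotlib 3.10.9 served for summaries and figures.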

Additional observations from a re-analysis of the deposited data

Results flagged for a closer look

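Among the 131 genes whose change is printed, 5 that were called in ESC total RNA moved the other way in iMEFs without overlap. That is, both iMEF libraries at 20 h lay on the other side of both at 4 h. Genes that are not printed were not searched. Over all genes tested in iMEFs, both 20 h libraries lay above both 4 h libraries in 20.9% and below both in 31.7%. The difference between the cell types was not tested, since the tables were normalized separately, and none of the 5 iMEF changes was called. Krt18 had a log2 change of 2.80 in ESCs and -0.27 in iMEFs, where it had 25.2 and 24.7 FPKM at 20 h, against 30.0 and 30.7 FPKM at 4 h. Anxa2 had 1.32 in ESCs and -0.25 in iMEFs, with 137 and 121 FPKM at 20 h, against 157 and 149 FPKM at 4 h there. Igfbp3, which binds insulin-like growth factors, had 0.76 in ESCs and -0.31 in iMEFs, with 119.9 and 105 FPKM at 20 h, against 144 and 134 FPKM at 4 h there. Bmp4 had -1.15 in ESCs and 0.29 in iMEFs, with 24.7 and 24.0 FPKM at 20 h, against 19.2 and 20.1 FPKM at 4 h there. Fcor had -1.71 in ESCs and 0.16 in iMEFs, with 9.58 and 9.14 FPKM at 20 h, against 8.57 and 7.95 FPKM at 4 h there. With 2 libraries a group, no group was large enough to look for single libraries that stand apart.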

How the results depend on the processing

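The number of genes called higher at 20 h in ESC total RNA depended most on the scaling. The falls called before and after rescaling were 3039 with upper-quartile scaling and 3225 with the replicate number as a block. Each setting was crossed with the same rescaled calls from all 6 libraries, which held 3098 rises and 3225 falls. Counts called before and after rescaling could not exceed these, so a steady count of falls is built in. As deposited, 980 genes were higher, and this count was 3098 after rescaling, 3335 with upper-quartile scaling, 320 among genes with a mean of 5 FPKM or more, and 506 to 988 with 1 library left out. The 6054 lower genes became 3225 after rescaling and 3039 with upper-quartile scaling, and 4461 to 6507 with 1 library left out. The 978 rises became 3098 with upper-quartile scaling and 485 to 959 with 1 library left out. In iMEFs the counts as deposited, 274 higher and 743 lower, were 107 and 366 with no filter, 1070 and 1295 after rescaling, 968 and 1351 with upper-quartile scaling, and 70 to 312 and 295 to 1080 with 1 library left out. The higher iMEF count was 176 with the 4 compared libraries alone. RAD0 counts moved by less than 1.5 times. Shared replicate numbers did not pair the samples (the correlations of their deviations in ESCs were -0.026, 0.145 and -0.00251), and with the number as a block limma called 908 higher and 5672 lower genes in ESCs, 2972 and 3402 in RAD0, and 174 and 573 in iMEFs. Trp53 and Mdm4 changed sign, to 0.0100 and 0.14 after rescaling and to 0.0533 and 0.18 with upper-quartile scaling. Of 56 list medians relative to all genes, 50 moved by more than the spread over pairs of libraries with no filter, where the median of all genes was -0.0738, 41 with a pseudocount of 0.1, 37 after rescaling, 36 with upper-quartile scaling, 6 with the 4 compared libraries alone and 13 to 16 with 1 library left out. With no filter the relative median also turned to -0.16 for the list of lysosome genes and to 0.0330 for that of neural genes. Of 131 genes whose change is printed, 126 kept their direction and their side of the threshold after rescaling, 126 with no filter, 130 with a pseudocount of 0.1 and 127 under the block, and 119 could be fitted without a 20 h library, of which 114 and 113 did. The median nascent change of risen genes was 0.0654 with no filter and 0.47 with a minimum of 2, and that of fallen genes -0.0867 with no filter. The chrRNP to cyto median of risen genes was -1.28 with a minimum of 5. H3K27ac at both times was found in 50.4% of risen and 72.3% of fallen genes within 5 kb of an end and in 44.5% of risen genes within 1 kb without those that passed the filter only through the 20 h libraries, and the share of fallen genes with a peak at 4 h only was 3.97% within 5 kb of an end. The counts at RefSeq starts are void, since too few starts were known, and were 48.2% and 79.6% within 5 kb and 74.6% of fallen genes within 1 kb. The cause of these shifts was not tested. Some settings were added after the data were seen, namely those on genes with a mean of 5 or more, on ends of genes, on genes of 1 FPKM or more before 20 h, and the counts called before and after rescaling. Depth is unknown, 2 libraries a group give few degrees of freedom, and a small change of a gene near 1 FPKM was not detectable with this design.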

Other observations

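Many genes of mitochondria and of RNA polymerases I and III fell as well. Of 76 mitochondrial ribosomal protein genes 42 fell and 0 rose (relative median -0.49), and of 74 nuclear genes of oxidative phosphorylation 43 fell and 2, Cox6b2 and Cox7a1, rose (-0.52). Cox5a, a subunit of cytochrome oxidase, had 35.0 and 30.6 FPKM at 20 h, against 103 and 113 FPKM at 4 h (log2 change -1.69 ± 0.13). Of 11 mitochondrially encoded genes 4 fell and 2, the ribosomal RNA genes mt-Rnr1 and mt-Rnr2, rose. Ribosomal RNA was depleted before sequencing, so a change of these 2 genes cannot be told apart from a difference in depletion between libraries. Of 25 genes of RNA polymerases I and III 13 fell and 1 rose (-0.36). Polr3g, the form of a polymerase III subunit that ESCs favour, had 4.85 and 4.14 FPKM at 20 h, against 13.5 and 18.5 FPKM at 4 h (log2 change -1.61 ± 0.17), and its libraries did not overlap. Among 20 Polycomb genes 7 fell and 0 rose, and the median of the list lay at that of all genes (-0.03). Shares over all genes tested were 25.9% for a fall and 7.85% for a rise. Ezh2, the histone methyltransferase, had 4.35 and 4.44 FPKM at 20 h, against 11.2 and 13.0 FPKM at 4 h (log2 change -1.28 ± 0.12).

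Stress and lineage lists were split, while 25.9% of all genes tested fell and 7.85% rose. Of 15 genes of the unfolded protein response 7 fell and 0 rose (-0.06), among them the chaperone gene Hspa5, with 35.9 and 32.7 FPKM at 20 h, against 65.3 and 79.4 FPKM at 4 h (log2 change -1.05 ± 0.14). Of 15 oxidative stress genes 5 fell and 3 rose, namely Hmox1 and the metallothioneins Mt1 and Mt2, and of 23 lysosome and autophagy genes 4 fell and 4 rose. Of 13 tested genes of interferon response and RNA sensing 6 fell and 0 rose (-0.37), including the sensor gene Ddx58. Among 4 tested neural genes 1 rose and 2 fell. Nes, an intermediate filament gene of neural progenitors, had 7.84 and 7.69 FPKM at 20 h, against 1.16 and 1.25 FPKM at 4 h (log2 change 1.99 ± 0.11). Vim, which encodes the filament vimentin, had 38.9 and 36.2 FPKM at 20 h, against 20.7 and 21.9 FPKM at 4 h (log2 change 0.79 ± 0.12). The signalling ligand gene Wnt3 had 1.64 and 1.57 FPKM at 20 h, against 0.138 and 0.139 FPKM at 4 h (log2 change 1.20 ± 0.15), and passed the filter only through the 20 h libraries. The protease gene Furin had 2.98 and 2.62 FPKM at 20 h, against 0.991 and 0.872 FPKM at 4 h (log2 change 0.98 ± 0.13). In each of these genes the 20 h libraries lay on one side of both 4 h libraries.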
